A study of Homo sapiens with 12 samples.

Results

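Gene expression in 2 samples labelled as SKBR-3 breast cancer cells given PF04554878 at 1 µM for 24 hours was compared with 2 samples labelled as untreated SKBR-3 cells. PF04554878 is the research code of defactinib, a small-molecule inhibitor of the kinase domain of focal adhesion kinase. These 4 arrays belong to a set of 12. Among the 11564 genes tested, 10932 exceeded background on at least 1 of the 4 arrays. The other groups used here, each with 2 arrays, are PF04554878 at 1 µM together with lapatinib at 5 µM, lapatinib alone at 5 µM, and Y15, another focal adhesion kinase inhibitor, at 1 µM. A last group of 2 arrays, Y15 at 1 µM together with lapatinib at 5 µM, entered the fit and the patterns over all 12 arrays. All of these treatments lasted 24 hours. No vehicle is named for the untreated samples. Whether the 2 samples of a group came from separate cultures is not stated either, so a p-value here speaks only of the spread among arrays, which may be technical.

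Focal adhesion kinase (FAK, encoded by PTK2) is a cytoplasmic tyrosine kinase that is recruited to integrins where cells attach to the extracellular matrix. It phosphorylates itself, binds SRC, and with SRC phosphorylates adaptor proteins such as p130Cas (BCAR1) and paxillin (PXN), which in turn act on actin, migration and survival signalling. In breast cancer cells FAK also lies downstream of growth factor receptors of the ERBB family, of which ERBB2 is the amplified oncogene of SKBR-3.

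Values are log2 probe intensities, and a difference is the mean of the PF04554878 arrays minus the mean of the untreated arrays with its standard error from limma. Adjusted p-values are Benjamini-Hochberg values over all genes tested, with a threshold of 0.05, and background ended at a cutoff of 6.80. Such a scale compresses differences, most of all for dim genes. Each of the 12 arrays had 9712 to 9902 genes above the cutoff. The deposited arrays shared nearly the same distribution of values, so these counts had to be close and say nothing of array quality. The PF04554878 arrays correlated with each other at r = 0.994 across genes and the untreated arrays at 0.987, while the mean over pairs drawn from both groups was 0.934. The PF04554878 arrays were about as close to those labelled PF04554878 plus lapatinib (mean r 0.985) as the untreated arrays were to those labelled Y15 (0.986). The lapatinib arrays were as close to those labelled Y15 plus lapatinib (0.985). They were farther from the PF04554878 arrays (0.878), the untreated arrays (0.881) and those labelled PF04554878 plus lapatinib (0.875). Genes are not independent replicates, so these correlations describe arrays. What sets such pairs of groups together was not tested.

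The cell line label was read against its markers. ESR1, the oestrogen receptor, which SKBR-3 is known to lack, stood at 10.11 and 9.99 in the PF04554878 arrays, against 10.24 and 9.96 in the untreated arrays. CDH1, the epithelial cadherin that SKBR-3 is also known to lack, stood at 12.49 and 12.20, against 10.53 and 10.28 in the untreated arrays. ERBB2 stood only at 8.67 and 8.83, against 9.34 and 9.35 in the untreated arrays. These levels go against the cell line named, so groups are named as arrays labelled with a treatment, and all directions given depend on the labels being right. Among markers of other cells, 3 of 13 fibroblast, 1 of 10 endothelial, 3 of 14 leukocyte, 3 of 9 adipocyte and 3 of 8 basal epithelial genes passed the filter, and PTPRC, PECAM1, PDGFRA, ADIPOQ and KRT5 did not. The summed linear intensity of the 3 fibroblast markers ran from 696 to 702 in the PF04554878 arrays and from 372 to 376 in the untreated arrays, and that of the 3 basal markers from 1053 to 1110 and from 595 to 732 in the same groups. COL5A1 and ACTA2, each described below, were the members of these lists called higher. The 3 leukocyte markers summed to between 528 and 545 in the PF04554878 arrays and to between 519 and 573 in the untreated arrays.

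Across all genes, 5232 of 11564 (45.2%) were called in the arrays labelled PF04554878 against those labelled untreated, 2735 higher (23.7%) and 2497 lower (21.6%). Of these, 624 (5.40%) differed by at least 2-fold. The median difference over all genes tested was 0.00. Because the arrays shared nearly the same distribution, a shift common to most genes would not show in this value. Fitted to these 4 arrays alone, limma called 4095.

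The largest rise was that of UBB, which encodes a polyubiquitin precursor. It stood at 12.79 and 12.83 in the PF04554878 arrays, against 8.49 and 9.30 in the untreated arrays, a difference of 3.92 ± 0.17 (15.1-fold, adjusted p = 1.2e-10 by limma). Both PF04554878 arrays lay far above both untreated arrays. The second UBB probe averaged 12.15 in the PF04554878 arrays and 8.73 in the untreated arrays. LAMP3, a lysosome-associated membrane protein, stood at 10.10 and 9.95, against 6.58 and 6.52, below background, in the untreated arrays, at least 9.36-fold higher on this probe (adjusted p = 1.14e-12). A dimmer LAMP3 probe differed by 1.65. The gene thus stood near background in the untreated arrays and well above it in both arrays labelled PF04554878.

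PCDHB2, a member of the clustered protocadherins, which are neuronal adhesion molecules, averaged 9.96 in the PF04554878 arrays and stood at 6.61 and 6.59, below background, in the untreated arrays. It was at least 8.97-fold higher (adjusted p = 6.55e-13), while its second probe averaged only 7.04 and 6.61 in the same groups. MDK, the heparin-binding growth factor midkine, stood at 9.76 and 9.84, against 6.64 and 6.72 in the untreated arrays, at least 7.99-fold higher on this probe, and its dimmer probe averaged 6.75 and 6.73. The disagreement of the MDK probes means that this rise rests on 1 probe. CPE, carboxypeptidase E of the secretory pathway, stood at 10.14 and 9.91, against 6.96 and 7.07 in the untreated arrays (3.01 ± 0.10). TFF3, a secreted trefoil peptide of luminal epithelium, stood at 11.11 and 11.39, against 8.31 and 8.23 in the untreated arrays (2.98 ± 0.13). OAT, ornithine aminotransferase of mitochondria, stood at 10.26 and 10.10, against 7.36 and 7.32 in the untreated arrays (2.84 ± 0.10). Its second probe gave a rise of 3.02.

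The other genes among the 14 largest rises included 3 that were below background in both untreated arrays. These were ELOVL2, a fatty acid elongase (at least 6.37-fold), PPP1R3C, a glycogen-targeting subunit of protein phosphatase 1 (at least 5.88-fold), and NIBAN1, a stress-responsive gene (at least 5.70-fold). BTBD6 rose by 2.67 ± 0.13, the PDZ scaffold gene PDZK1 by 2.64 ± 0.22 and ELAPOR1, an endosomal and lysosomal membrane protein, by 2.51 ± 0.19. PDZK1 and ELAPOR1 were uneven between the untreated arrays, at 6.90 and 7.99 for PDZK1 and at 8.26 and 9.05 for ELAPOR1, whereas the PF04554878 arrays held 10.08 and 10.08, and 11.16 and 11.16. The PF04554878 values of both genes lay above the higher untreated array.

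Among the falls, MAGED1, a member of the melanoma antigen family that acts as an adaptor in neurotrophin receptor signalling, stood at 6.50 and 6.42 in the PF04554878 arrays, below background, against 10.92 and 10.85 in the untreated arrays. It was at least 17.0-fold lower (adjusted p = 2.32e-14). A second MAGED1 probe averaged 6.39 in the PF04554878 arrays and 9.70 in the untreated arrays, and the dimmest 6.47 and 6.91. All 3 probes were thus at the background level in the arrays labelled PF04554878. TRIP6, a LIM-domain protein of focal adhesions, stood at 6.55 and 6.61, against 10.92 and 11.01 in the untreated arrays, at least 17.9-fold lower (adjusted p = 2.32e-14). KDELR1, a receptor that returns chaperones from the Golgi to the endoplasmic reticulum, stood at 6.68 and 6.72, against 10.10 and 10.30 in the untreated arrays, at least 10.6-fold lower (adjusted p = 1.36e-12). TRIP6 and KDELR1 were each measured by 1 kept probe.

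SMAD4, the shared mediator of TGF-beta and BMP signalling, stood at 6.60 and 6.47 in the PF04554878 arrays and at 9.02 and 8.98 in the untreated arrays, at least 4.60-fold lower. ID1, a transcriptional inhibitor known as a target of BMP signalling, stood at 6.81 and 7.01, against 9.07 and 9.36 in the untreated arrays (-2.30 ± 0.12). Both SMAD4 values lay below background in the PF04554878 arrays and those of ID1 just above it. PLS3, an actin-bundling plastin, stood at 7.40 and 7.25, against 10.46 and 10.78 in the untreated arrays (-3.29 ± 0.11), and its second probe differed by -2.79. IGFBP5, a secreted binding protein of insulin-like growth factors, stood at 9.84 and 9.83, against 12.33 and 12.47 in the untreated arrays (-2.57 ± 0.11). SLC7A5, a transporter of large neutral amino acids, stood at 10.78 and 10.87, against 13.09 and 13.48 in the untreated arrays (-2.46 ± 0.11). IGFBP5 and SLC7A5 remained well above background while they fell.

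The remaining falls of this size were those of SNAR-A1 (-3.87 ± 0.16), CEP20 (-2.97 ± 0.09), HBA2 (-3.19 ± 0.15), HBA1 (-2.48 ± 0.15), ADGRL1 (-2.29 ± 0.16) and LSP1P5 (at least 4.52-fold lower). SNAR-A1 is 1 of many near-identical copies of a small noncoding RNA, the alpha globin genes HBA1 and HBA2 encode the same protein, and LSP1P5 is a pseudogene, so these probes may read more than 1 locus. A second HBA2 probe averaged 6.75 in the PF04554878 arrays and 6.66 in the untreated arrays. No array of one group overlapped the other group in these 28 genes, which their choice required, and 7929 of all genes tested (68.6%) had no overlap.

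**Figure D1:**
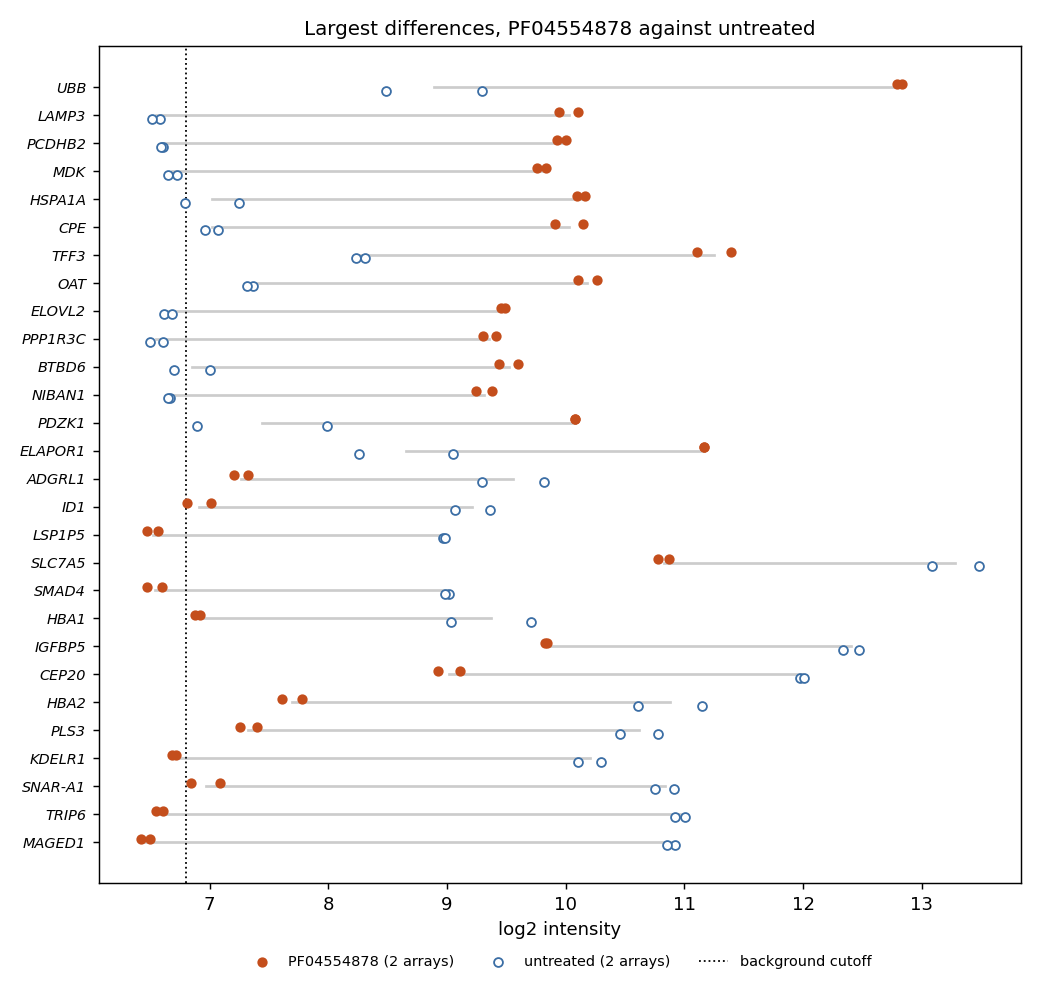
Log2 intensity (horizontal axis) of the 14 genes with the largest rises and the 14 with the largest falls in the arrays labelled PF04554878 (filled points, 2 arrays) and untreated (open points, 2 arrays), with a grey line joining the group means and the background cutoff of 6.80 dotted. UBB at the top stands at 12.79 and 12.83 against 8.49 and 9.30, and MAGED1 at the bottom at 6.50 and 6.42 against 10.92 and 10.85.

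Some genes crossed the background cutoff altogether. In 310 genes (2.68%) both PF04554878 arrays lay below the cutoff and both untreated arrays above it, and in 465 genes (4.02%) the reverse held. Where the brighter group had to average at least 1 log2 unit above the cutoff, 24 genes were lost and 42 gained in the arrays labelled PF04554878. The same count between the arrays labelled Y15 and untreated was 0 lost and 0 gained. The lost genes included PRAME, a cancer-testis antigen (6.53 in the PF04554878 arrays, 8.73 in the untreated arrays), BGN, the matrix proteoglycan biglycan (6.53 and 8.41 in the same groups), STAT6, the transcription factor of interleukin-4 signalling (6.68 and 8.06), and SCNN1A, an epithelial sodium channel subunit (6.66 and 8.07). The gained genes included CD44, the hyaluronan receptor (8.93 in the PF04554878 arrays, 6.48 in the untreated arrays), SOX9, a transcription factor (8.18 and 6.70), LGALS3, the lectin galectin-3 (8.85 and 6.57), APOD, apolipoprotein D (8.97 and 6.49), and ROR2, a WNT5A receptor (7.86 and 6.52). These genes were chosen for their patterns after the values had been seen.

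Some of these switches separated the arrays with PF04554878 from all others of the set. Of the 24 lost genes, 17 were also below the cutoff in both arrays labelled PF04554878 plus lapatinib, and 10 were below it in all 4 arrays with PF04554878 and above it in the 8 others, among them MAGED1, TRIP6, SMAD4, PRAME, SCNN1A and STAT6. Of the 42 gained genes, 40 were also above the cutoff in both arrays labelled PF04554878 plus lapatinib, and 9 were above it in the 4 arrays with PF04554878 and below it in the 8 others. These 9 included PPP1R3C and AMPH, the synaptic membrane-remodelling gene amphiphysin, which stood at 9.11 and 8.98 in the PF04554878 arrays, against 6.71 and 6.61 in the untreated arrays. A larger number, 26 of the 42 gained genes, were also above the cutoff in both arrays labelled lapatinib, such as CD44 at 8.65 and RAB32 at 9.49.

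**Figure D2:**
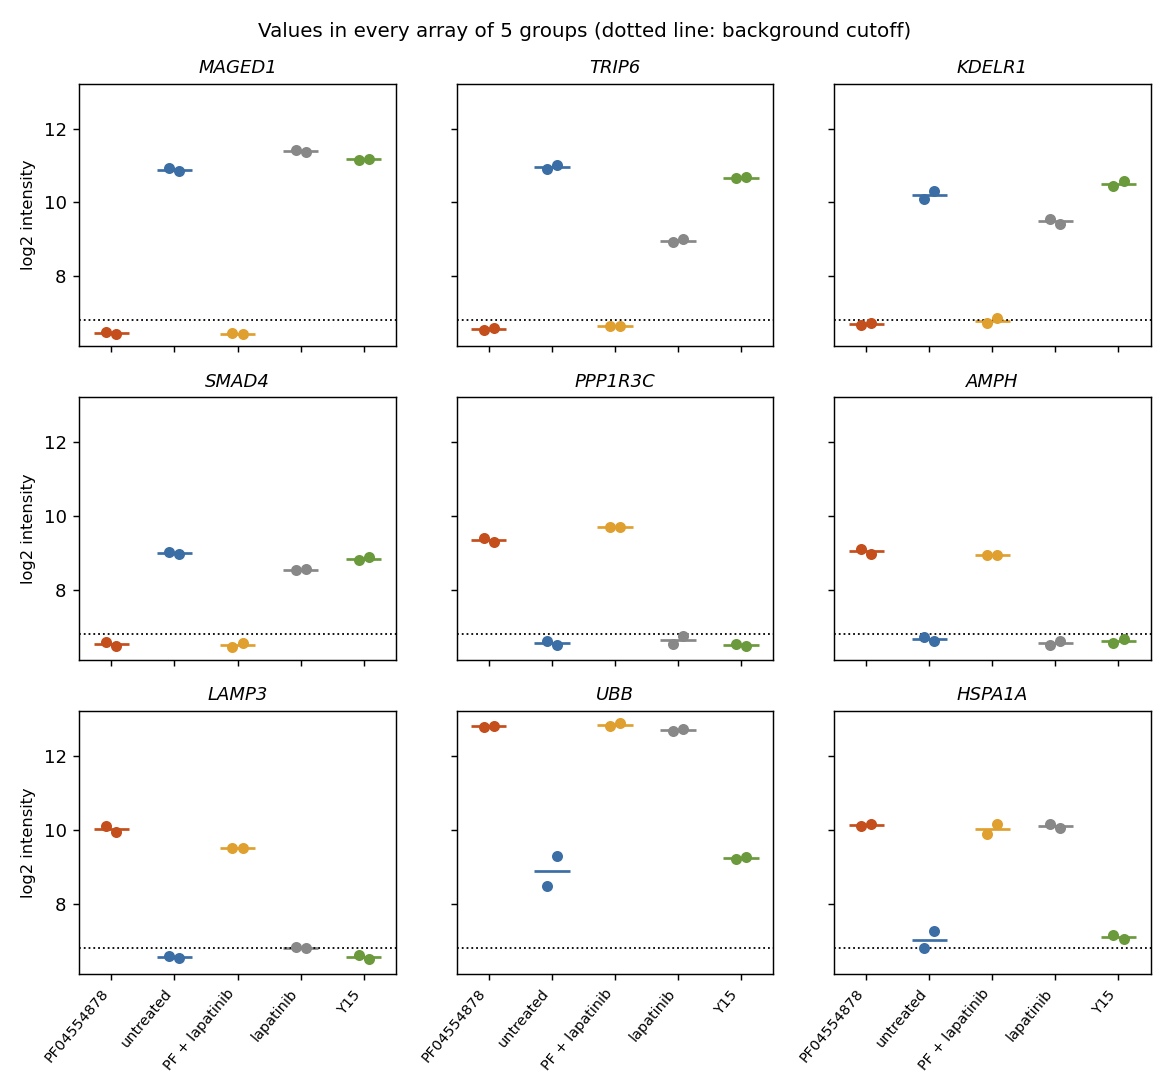
Log2 intensity (vertical axis) of 9 genes in both arrays of 5 groups, with a short line at each group mean and the background cutoff of 6.80 dotted. The arrays labelled PF04554878 plus lapatinib are written "PF + lapatinib". MAGED1, TRIP6, KDELR1 and SMAD4 are near the cutoff only in the 2 groups with PF04554878, PPP1R3C, AMPH and LAMP3 stand well above it only there, and UBB and HSPA1A are high in the lapatinib arrays too.

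The gene for the target itself was lower. PTK2 stood at 10.57 and 10.43 in the PF04554878 arrays, against 11.07 and 11.17 in the untreated arrays (-0.62 ± 0.10, adjusted p = 7.2e-05), and a dimmer probe averaged 7.17 and 7.24 in the same groups. Both arrays labelled PF04554878 lay below both untreated arrays on the brighter probe, while 68.6% of all genes tested had no overlap in either direction. PTK2B, which encodes the related kinase PYK2, stood at 6.89 and 6.92, against 6.78 and 6.93 in the untreated arrays, close to background and not past the threshold (0.05 ± 0.09, adjusted p = 0.71). The array reads RNA and says nothing of kinase activity.

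Among 25 tested members of the FAK family and its direct partners, 4 rose and 9 fell, with a median of -0.01 beside 0.00 for all genes. Here and in the lists below, counts are to be read beside the 23.7% called higher and 21.6% called lower over all genes tested. The kinase gene SRC stood at 7.24 and 7.11, against 8.49 and 8.56 in the untreated arrays (-1.35 ± 0.11, adjusted p = 6.87e-08 by limma). Its groups did not overlap, which held for 68.6% of all genes tested. The FAK-binding scaffold gene GIT1 fell by 1.02 ± 0.11 and ASAP1, an ARF GTPase-activating protein that binds FAK and SRC, by 0.71 ± 0.09, with all 3 ASAP1 probes lower. The adhesion protein gene VCL, vinculin, was the highest of the 4 rises at 0.85 ± 0.11. The adaptor GRB2 rose by 0.67 ± 0.13 and tensin TNS3 by 0.67 ± 0.10, although a second GRB2 probe differed by 0.21, which did not pass. The substrates BCAR1 (0.16 ± 0.15, adjusted p = 0.392) and PXN (0.21 ± 0.11, adjusted p = 0.114) did not pass.

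Of 27 integrins and structural proteins of focal adhesions, 13 rose and 5 fell (median 0.21). TRIP6 was the largest difference of the list. Integrin beta 4, ITGB4, stood at 8.17 and 8.63 in the PF04554878 arrays and at 7.09 and 6.96 in the untreated arrays (1.38 ± 0.13, adjusted p = 4.51e-07). PARVA, alpha-parvin, which links integrins to actin through ILK, rose by 1.09 ± 0.10 and the actin-binding LASP1 by 1.08 ± 0.09. Of the zyxin family members, LPP fell by 1.15 and TRIP6 was lost. ZYX, zyxin itself, rose by 0.82 on its brightest probe, while a second probe averaged 7.98 in the PF04554878 arrays and 8.14 in the untreated arrays (-0.16).

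Of 19 genes of the extracellular matrix, 5 rose and 8 fell (median -0.15), with 5 falls without replicate 2 of the PF04554878 group. The 8 falls were small, from SDC1, a syndecan, at -0.64 to COL6A1 at -0.34. The rises were larger. TIMP1, an inhibitor of matrix metalloproteinases, stood at 11.02 and 11.15, against 9.14 and 9.33 in the untreated arrays (1.85 ± 0.09), and the fibrillar collagen gene COL5A1 at 8.86 and 8.86, against 7.29 and 7.37 in the untreated arrays (1.53 ± 0.09). COL12A1 was at least 2.45-fold higher, its probe being below background in both untreated arrays, and COL4A5 rose by 0.83 ± 0.09. Among 25 actin, SRF and YAP target genes 9 rose and 7 fell (median 0.07), with ACTA2, smooth muscle actin (1.75 ± 0.09), and TMSB4X, the actin-sequestering thymosin beta 4 (1.75 ± 0.09, near the top of the scale), against the plastins PLS3 and LCP1 (-1.39 ± 0.08). The classic YAP targets CCN1 (0.18) and CCN2 (0.20) did not pass.

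Of the receptor genes of the ERBB family, ERBB2 fell by 0.59 ± 0.09 (adjusted p = 7.91e-05), and ERBB3 stood at 8.47 and 8.42 in the PF04554878 arrays and at 8.55 and 8.87 in the untreated arrays without passing (-0.26 ± 0.14, adjusted p = 0.143). Without replicate 1 of the untreated group, the ERBB3 difference was -0.43 and its adjusted p 0.0347. EGFR was barely above background, at 6.87 and 6.84, against 6.54 and 6.49 in the untreated arrays, at least 1.04-fold higher. The EGFR ligand gene TGFA stood at 8.12 and 7.97, against 6.90 and 7.34 in the untreated arrays (0.92 ± 0.12, adjusted p = 1.81e-05). Of the 9 genes tested in this list, 5 rose and 1 fell, with a median of 0.26. The rises included EGF (at least 1.03-fold) and HBEGF (at least 1.14-fold), both near background like EGFR. HBEGF did not pass when limma was fitted to these 4 arrays alone (adjusted p = 0.0921). ERRFI1 rose by 0.47 ± 0.13, but by 0.23 without replicate 1 of the untreated group.

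Of 24 oestrogen receptor targets 14 rose and 3 fell (median 0.29), against 9 and 5 without replicate 1 of the untreated group, although ESR1 itself did not pass (-0.05 ± 0.11, adjusted p = 0.746). TFF1, the most used readout of oestrogen receptor activity, stood at 13.61 and 13.68, against 12.42 and 12.83 in the untreated arrays (1.02 ± 0.12). These levels are near the top of the scale, 13.90. STC2, the secreted hormone stanniocalcin-2, stood at 10.28 and 10.12, against 8.30 and 8.27 in the untreated arrays (1.92 ± 0.10). PGR, the progesterone receptor, differed by 0.25 ± 0.09 (adjusted p = 0.028), and its adjusted p was 0.118 without replicate 1 of the untreated group and 0.153 and 0.0511 without replicate 1 and replicate 2 of the PF04554878 group. The falls were BCL2 (-1.96 ± 0.12), the zinc transporter SLC39A6 (-1.03 ± 0.17) and, on its brightest probe, the glial-derived growth factor receptor GFRA1 (-1.06). The 2 other GFRA1 probes were called higher (0.65 and 0.54), so its direction depends on the probe. Among the 155 genes of the lists or named here that were called and had more than 1 probe above background, 61 had a probe that did not pass and 2, GFRA1 and RPS15, had one called in the opposite direction.

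The luminal epithelial list, which shares TFF3, XBP1, FOXA1 and GATA3 with the oestrogen receptor targets, held 11 rises and 2 falls among 24 genes (median 0.19). CDH1 rose by 1.93 ± 0.11 (adjusted p = 2.58e-09). AGR2, a disulphide isomerase of secretory epithelium, stood at 11.42 and 11.39, against 9.66 and 9.06 in the untreated arrays (2.05 ± 0.14), and XBP1, a transcription factor of secretory cells and the unfolded protein response, at 13.67 and 13.78, against 12.18 and 12.48 in the untreated arrays (1.39 ± 0.10), also near the top of the scale. Both groups were apart in each of these genes, as in 68.6% of all genes tested. Of 13 mesenchymal transition genes that could be tested, 3 rose and 5 fell, with 3 falls without replicate 1 of either group and 2 without replicate 2 of the PF04554878 group. Among them were the intermediate filament gene VIM (-0.54 ± 0.11) and, on the rising side beside CDH1, the receptor gene TGFBR2 (0.75 ± 0.11). The classical inducers SNAI1, SNAI2, ZEB1 and ZEB2 did not reach the filter.

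Heat shock genes encode chaperones that fold other proteins and rise together when heat shock factor 1 is active. Here 6 of 23 rose and 9 fell (median -0.13). HSPA1A, an inducible HSP70, stood at 10.10 and 10.16 in the PF04554878 arrays and at 6.79 and 7.25 in the untreated arrays (3.11 ± 0.15, adjusted p = 2.76e-10). The probe of HSPA1B, which lies beside HSPA1A on chromosome 6 and encodes a near-identical protein, went the other way, at 9.63 and 9.54 in the PF04554878 arrays and at 11.09 and 11.19 in the untreated arrays (-1.56 ± 0.10, adjusted p = 1.4e-08). How far each probe reads both genes is not given in the sources used here, so neither difference can be assigned to 1 gene with certainty. HSPH1, an HSP70 co-chaperone, fell by 1.00 ± 0.10 and HSP90AB1 by 0.98 ± 0.10, while DNAJB2, a neuronal J-domain protein, rose by 1.30 ± 0.11. HSPE1, the mitochondrial co-chaperonin (-0.85), and DNAJB1, an HSP40 (-0.61), also fell.

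The promoters of the pair are shown because their probes moved in opposite directions. The windows are the 250 bases before the start of each gene in RefSeq (GRCh38.p14), at chr6:31815293-31815542 for HSPA1A and chr6:31827488-31827737 for HSPA1B, both on the + strand. Capitals mark the heat shock element searched for, GAANNTTC, which reads the same on both strands.
HSPA1A: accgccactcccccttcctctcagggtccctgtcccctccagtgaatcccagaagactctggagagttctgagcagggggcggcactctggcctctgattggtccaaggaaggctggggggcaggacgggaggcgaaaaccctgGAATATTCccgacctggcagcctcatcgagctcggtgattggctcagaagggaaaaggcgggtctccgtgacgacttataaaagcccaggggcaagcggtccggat
HSPA1B: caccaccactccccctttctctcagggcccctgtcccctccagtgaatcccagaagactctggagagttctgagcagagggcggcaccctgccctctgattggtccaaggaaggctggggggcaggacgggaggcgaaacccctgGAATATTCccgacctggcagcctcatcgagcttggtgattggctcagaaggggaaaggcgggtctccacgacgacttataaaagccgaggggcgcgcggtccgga
In a global alignment, 235 of 251 columns (93.6%) were identical. Each window held the element 1 time, its first base at -106 from the start in HSPA1A and at -105 in HSPA1B. Of the 21 heat shock genes tested whose promoters were matched, 9 held the element (42.9%), against 376 of 9299 promoters of all genes tested that were matched (4.04%). It was present in 3 of the 5 matched heat shock genes that rose, in 3 of the 9 that fell and in 3 of the 7 not called. No match was found in the UBB window. A match describes letters in a window and not a binding site.

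Ubiquitin and the proteasome act downstream of such chaperones, in the disposal of proteins. Of 27 proteasome subunits 17 rose and 2 fell, with a median of 0.35, and the rises were modest. PSMA1, a subunit of the core particle, stood at 11.98 and 11.78, against 10.85 and 10.74 in the untreated arrays (1.08 ± 0.11). PSMB1 rose by 0.99 ± 0.09, PSMB6 by 0.98 ± 0.11 and PSMC1, an ATPase of the regulatory particle, by 0.85 ± 0.09. Subunits of the core and of the regulatory particle were both among the rises, while PSMD2 (-0.50) and PSMC2 (-0.41) fell. Of the 7 ubiquitin genes tested 2 rose, UBB and the activating enzyme gene UBA1 (0.62 ± 0.12).

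Chaperones of the endoplasmic reticulum and the unfolded protein response gave 11 rises and 6 falls among 24 genes (median 0.13). KDELR1 was lost, as described, while KDELR3, another receptor of that family, stood at 9.59 and 9.47, against 8.69 and 8.34 in the untreated arrays (1.01 ± 0.13). CANX, the lectin chaperone calnexin, fell by 0.98 ± 0.09 and HSPA5, the central chaperone of this compartment, by 0.60, beside the rise of XBP1. Of 27 lysosome and autophagy genes 12 rose and 5 fell (median 0.14), the falls being 2 without replicate 2 of the untreated group and 3 without replicate 1 of the PF04554878 group. After LAMP3 the clearest rises were LAMP2, a lysosomal membrane glycoprotein (1.34 ± 0.11), NPC2, which binds cholesterol in the lysosome (1.21 ± 0.12), and PSAP, the precursor of the saposins (1.10 ± 0.12). Among the 6 kept LAMP2 probes the differences ran from -0.15 to 1.72, so that its value depends on the probe.

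Of 28 ribosome biogenesis genes 19 fell and 2 rose, with a median of -0.30. NHP2, a protein of box H/ACA ribonucleoproteins, stood at 11.28 and 11.44, against 12.81 and 12.72 in the untreated arrays (-1.40 ± 0.09, adjusted p = 8.56e-09), and all 4 of its probes were lower. NOP16 fell by 1.15 ± 0.11, the 60S assembly factor WDR12 by 1.00 ± 0.09 and nucleolin, NCL, by 0.87 ± 0.09. The exceptions were NOP10, a partner of NHP2 (0.41), and UTP4 (0.55). MYC, a transcription factor known to drive this programme, stood at 9.09 and 8.75, against 10.70 and 11.22 in the untreated arrays (-2.04 ± 0.18, adjusted p = 2.13e-07), on both of its probes.

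Of 30 cytosolic ribosomal proteins 13 fell and 4 rose (median -0.16), led by RPL27 (-0.95 ± 0.13) and RPS3 (-0.73 ± 0.10), with RPS23 opposed (0.87 ± 0.09). The number of rises was 2 without replicate 1 of the untreated group or replicate 2 of the PF04554878 group, and 9 without replicate 2 of the untreated group. Many of these genes have processed pseudogenes that a probe could also read. Of 30 ATF4 targets and tRNA synthetases 13 fell and 8 rose (median 0.01). The falls included SLC7A5, its partner SLC3A2 (-1.69), the asparaginyl-tRNA synthetase NARS1 (-1.45 ± 0.11), asparagine synthetase ASNS (-1.22 ± 0.10) and PHGDH of serine synthesis (-1.03). The rises included the synthetases SARS1 (0.92) and WARS1 (0.50), the glutamine transporter SLC1A5 (0.91), PSPH of serine synthesis (0.31), the transcription factor genes ATF5 (1.26), CEBPB (0.75) and ATF4 (0.46), and STC2. Of 30 subunits of the mitochondrial respiratory chain 10 rose and 9 fell, between ATP5F1A at -0.92 ± 0.09 and ATP5MC1 at 0.86 ± 0.10.

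Cell cycle lists held calls in both directions. The replication list, with 25.8% higher and 29.0% lower, lay near the shares over all genes tested, 23.7% and 21.6%. Of 32 mitosis genes 6 rose and 10 fell (median -0.11), and of 31 replication genes 8 rose and 9 fell (median -0.10), with 5 rises without replicate 2 of the untreated group or replicate 1 of the PF04554878 group. CDK1, the mitotic kinase, stood at 9.59 and 9.58, against 8.57 and 8.53 in the untreated arrays (1.03 ± 0.09), while the phosphatase gene CDC25B, which activates it, fell by 0.85 ± 0.09. TYMS, thymidylate synthase, rose by 1.08 ± 0.11, and RFC4, of the clamp loader, fell by 1.07 ± 0.09, as did CDK4 (-0.90 ± 0.11) and the helicase subunit MCM7 (-0.86 ± 0.10). MKI67, the proliferation marker, did not pass (0.01).

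Of 19 p53 targets 8 rose and 1 fell (median 0.29). PHLDA3, an inhibitor of AKT at the membrane, stood at 9.27 and 9.41, against 7.70 and 7.68 in the untreated arrays (1.65 ± 0.09, adjusted p = 8.42e-10). TP53I3 rose by 1.07 ± 0.09, GADD45A by 1.01 ± 0.10 and CDKN1A, the cell cycle inhibitor p21, by 1.27 ± 0.19. For CDKN1A the PF04554878 arrays held 11.57 and 11.62 and the untreated arrays 9.89 and 10.76. MDM2 (0.17) and BAX (-0.10), which are also classic targets, did not pass. In the BCL2 family 5 of 20 rose and 3 fell, or 1 with replicate 1 or replicate 2 of the PF04554878 group left out. BCL2 itself, which opposes cell death, stood at 8.74 and 8.78, against 10.47 and 10.97 in the untreated arrays, and BCL2L1 (1.02), with the same role, and the death agonist BID (1.15 ± 0.09) rose.

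Of 26 immediate early and ERK feedback genes 8 rose and 7 fell (median -0.10). These are 30.8% and 26.9%, beside 23.7% and 21.6% over all genes tested. PHLDA1, a pleckstrin-homology gene induced by growth factors, was at least 3.56-fold higher, having been below background in both untreated arrays, and FOS fell by 1.16 ± 0.10. The ERK feedback phosphatase gene DUSP6 (-0.15) and EGR1 (-0.12) did not pass. Of 22 FOXO targets 8 rose and 5 fell (median 0.02), but 6 rose and 8 fell without replicate 1 of the untreated group, and 5 rose with replicate 1 or replicate 2 of the PF04554878 group left out. The list held CITED2 (1.56 ± 0.14) and BNIP3 (1.07 ± 0.10) against IRS2, an insulin receptor substrate (-1.19 ± 0.11), and RBL2 (-0.95 ± 0.11).

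The remaining lists can be given briefly. Of 26 interferon-stimulated genes 10 rose and 1 fell (median 0.21), with HERC6 (1.06 ± 0.11) and IFITM2 (1.05 ± 0.15) foremost. Only 6 rose without replicate 1 of the untreated group and 5 without replicate 2 of the PF04554878 group. Of 16 antigen presentation genes 5 rose and 0 fell, and the clearest were the proteasome activator genes PSME1 (1.17 ± 0.11) and PSME2 (1.08 ± 0.09), while B2M (-0.02) and HLA-B (0.25) did not pass. Of 22 NRF2 targets 8 rose and 1 fell, including the peroxiredoxin PRDX1 (0.86 ± 0.10) and the quinone reductase NQO1 (0.79 ± 0.09). Of 25 cholesterol and fatty acid genes 8 rose and 5 fell, among them SC5D (1.56 ± 0.15) and HMGCS1 (0.81 ± 0.10), with 3 falls without replicate 2 of the PF04554878 group. Of 26 glycolysis and hypoxia genes 8 rose and 4 fell, among them ADM, adrenomedullin (1.30 ± 0.14), and the muscle-type phosphofructokinase gene PFKM (-1.30 ± 0.11). The 6 metallothioneins tested did not pass, but the zinc importer SLC39A4 fell by 1.64 ± 0.11 and the exporter SLC30A1 rose by 0.72 ± 0.11. In the protocadherin beta cluster 4 of 9 rose and 0 fell, with PCDHB3 (1.99 ± 0.10) next to PCDHB2.

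**Figure D3:**
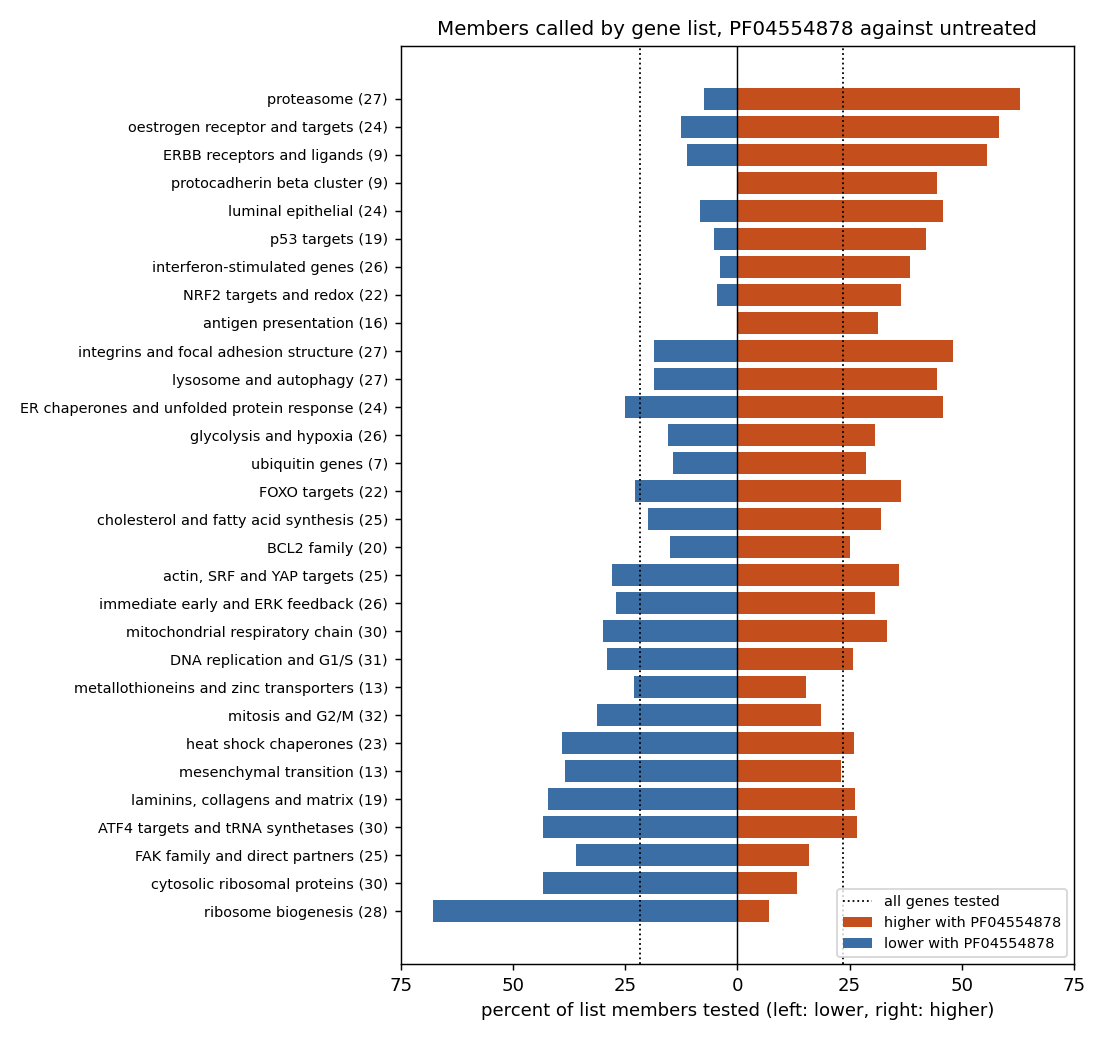
Percent of tested members (horizontal axis, number tested in brackets) called higher, to the right, or lower, to the left, in the arrays labelled PF04554878 against untreated, for 30 gene lists, with dotted lines at 23.7% and 21.6%, the shares over all genes tested. Proteasome genes are at one end with 17 of 27 higher, and ribosome biogenesis genes at the other with 19 of 28 lower.

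PF04554878 was also given together with lapatinib, and the arrays labelled PF04554878 plus lapatinib were set against those labelled lapatinib. This comparison has the same agent on top and shares no array with the first. It called 6612 genes (57.2%), 3349 higher (29.0%) and 3263 lower (28.2%), and 1325 (11.5%) differed by at least 2-fold. Across genes the differences of both comparisons correlated with r = 0.32. Of the 5232 genes called without lapatinib, 66.9% had the same sign with it, called or not. The comparisons had 3488 called genes in common, of which 1430 rose and 1099 fell in each. Another 481 were higher without lapatinib and lower with it, and 478 the other way round. The 1430 were 52.3% of the rises without lapatinib and 42.7% of those with it, and the 1099 were 44.0% and 33.7% of the falls.

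Of the 624 genes called at 2-fold or more, 391 were called the same way in the presence of lapatinib and 101 the opposite way. Of the 28 largest differences, 21 were called the same way there and 7 were not called. Those 7 were UBB, MDK, HSPA1A, HBA1, HBA2, CEP20 and SLC7A5. In these 7, as in some of the 21 such as PCDHB2 and OAT, the lapatinib arrays stood nearer to the PF04554878 mean than to the untreated mean. UBB, for example, averaged 12.86 in the arrays labelled PF04554878 plus lapatinib and 12.71 in those labelled lapatinib, and SLC7A5 averaged 11.47 and 11.28. The 21 included CPE, BTBD6 and PDZK1, whose calls rested on single arrays. Their adjusted p-values were 0.317 for CPE and 0.0799 for PDZK1 without replicate 1 of the lapatinib group, and 0.252 for BTBD6 without replicate 2. Without replicate 1 of the PF04554878 plus lapatinib group they were 0.101 for CPE, 0.293 for BTBD6 and 0.0604 for PDZK1, and without replicate 2 of that group 0.117 for CPE.

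Chosen by the smaller of both measured differences, the genes called the same way in each comparison were, on the rising side, PPP1R3C (2.80 without lapatinib, 3.07 with it), LAMP3 (3.48 and 2.70), ELAPOR1 (2.51 and 2.91), RET (2.39 and 3.93), AMPH (2.39 and 2.40), MARCKS (2.35 and 3.49), NUCB2 (2.23 and 2.19) and SOX3 (2.15 and 2.48). RET is the receptor tyrosine kinase of the glial-derived growth factors, and MARCKS is a membrane-bound actin regulator and substrate of protein kinase C. RET stood at 10.09 and 10.11 in the PF04554878 arrays, against 7.83 and 7.58 in the untreated arrays, and all 3 of its probes were higher. On the falling side they were MAGED1 (-4.43 and -4.95), KDELR1 (-3.50 and -2.70), PLS3 (-3.29 and -2.69), IGFBP5 (-2.57 and -2.82), TRIP6 (-4.38 and -2.32), SUSD3 (-2.24 and -2.59), SNAR-A1 (-3.87 and -2.22) and PRAME (-2.20 and -2.55). SUSD3 is a membrane protein known as an oestrogen-regulated gene in breast cancer cells. The first difference in each bracket has the untreated arrays as its base and the second the lapatinib arrays. Where 1 group lay below background the measured difference is not exact. Without lapatinib this holds for MAGED1, KDELR1, TRIP6, PPP1R3C and LAMP3, whose bounds are given above, for PRAME, at least 3.83-fold lower, and for AMPH, at least 4.76-fold higher. With lapatinib MAGED1 was at least 24.2-fold, TRIP6 at least 4.50-fold and PRAME at least 4.53-fold lower. MARCKS was at least 9.95-fold, PPP1R3C at least 7.52-fold, AMPH at least 4.46-fold and SOX3 at least 4.41-fold higher there.

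The difference between both comparisons was itself tested. The interaction is the difference over lapatinib minus that over untreated, so the level of the lapatinib arrays enters it. It passed for 5208 genes (45.0%), 2561 with a positive (22.1%) and 2647 with a negative sign (22.9%). Of all genes tested, 1412 (12.2%) passed and were of at least 2-fold. PTK2 and ERBB2, lower without lapatinib, were higher when set against the lapatinib arrays (0.43 ± 0.10 and 0.66 ± 0.09). The interactions were 1.05 ± 0.13 and 1.25 ± 0.13. In both genes the lapatinib arrays stood below the untreated arrays, so the second difference had a lower base. PTK2 averaged 10.21 in the lapatinib arrays, 10.65 in those labelled PF04554878 plus lapatinib and 11.12 in the untreated arrays. ERBB2 averaged 8.495, 9.15 and 9.35 in the same order. The largest interactions were negative and belonged to the cancer-testis antigen genes GAGE4 (-7.31 ± 0.12), GAGE12G, GAGE12J, GAGE12F and GAGE12C, near-identical copies that the probes may not separate, and to CLDN1, a tight junction claudin (-6.87 ± 0.13). GAGE4 was below background in both groups without lapatinib and stood at 13.77 in the lapatinib arrays. CLDN1 stood at 7.48 and 7.38 in the PF04554878 arrays and at 6.60 and 6.52 in the untreated arrays, at least 1.55-fold higher, but averaged 6.51 in the arrays labelled PF04554878 plus lapatinib and 12.50 in those labelled lapatinib.

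**Figure D4:**
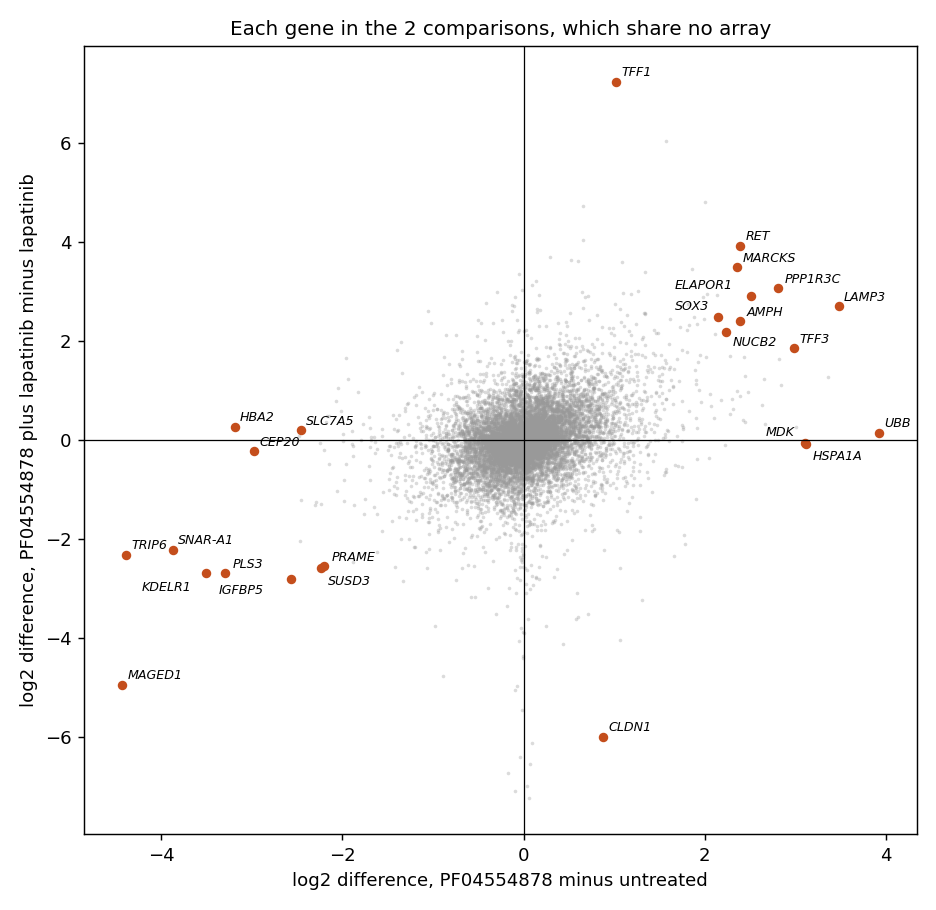
Log2 difference of each of the 11564 genes tested, PF04554878 minus untreated on the horizontal axis and PF04554878 plus lapatinib minus lapatinib on the vertical axis, with named genes in colour. MAGED1 at the lower left and LAMP3, RET and PPP1R3C at the upper right differ the same way in both, while UBB, MDK, HSPA1A, HBA2, CEP20 and SLC7A5 lie near 0 on the vertical axis.

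Set directly against Y15, at the same dose and time, the arrays labelled PF04554878 differed in 5483 genes (47.4%), 2832 higher (24.5%) and 2651 lower (22.9%), of which 663 (5.73%) by at least 2-fold. Compared with Y15, MAGED1 was at least 20.7-fold lower and TRIP6 at least 14.7-fold lower, LAMP3 was at least 9.36-fold higher on its brighter probe, and the difference of UBB was 3.56 ± 0.17. TFF3 was higher by 1.12 ± 0.13, a smaller difference than against untreated. TFF1 did not pass between the inhibitors (0.14 ± 0.12, adjusted p = 0.348). Over the 28 largest differences, the Y15 arrays minus the untreated arrays ran from -0.65 for SNAR-A1 to 1.86 for TFF3, with IGFBP5 next at 0.56. The untreated arrays are shared by these last values and those of PF04554878, so they are given side by side only.

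Genes called were unevenly spread over the chromosomes, a feature that the choice of genes did not use. On chromosome 18, 45.8% of the 153 genes tested were called lower and 13.7% higher, and the median difference was -0.21. On chromosome 7, 37.5% of 546 genes were lower and 13.7% higher (median -0.16). The reverse held on chromosome 4, where 38.4% of 404 genes were higher and 9.41% lower (median 0.16), and on chromosome 10, where 32.7% of 446 were higher and 10.1% lower (median 0.12). Over all genes the shares were 23.7% and 21.6%. The chromosome medians ran from -0.21 to 0.16 in PF04554878 minus untreated. Those between the PF04554878 replicates ran from -0.06 to 0.07, those between the untreated replicates from -0.05 to 0.02, and those of Y15 minus untreated from -0.05 to 0.07. In PF04554878 plus lapatinib minus lapatinib the chromosome medians ran from -0.22 to 0.33. There chromosome 18 had 38.6% of its genes higher and 15.7% lower (median 0.08), the other way round from the comparison without lapatinib, and chromosome 4 had 41.3% higher and 14.4% lower (median 0.17). Chromosome 7 had 23.4% higher and 32.1% lower (median -0.03), and the median of chromosome 10 was 0.04. These values have the lapatinib arrays as their base. Between the groups with PF04554878, PF04554878 plus lapatinib minus PF04554878, the chromosome medians ran from -0.03 to 0.03, with -0.02 on chromosome 18. In each of the 4 pairs of a PF04554878 and an untreated array, chromosome 18 had a median between -0.26 and -0.19 and chromosome 4 between 0.12 and 0.20.

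Genes near each other in the annotation order moved together in places. Among the 40 tested genes nearest to TRIP6 on chromosome 7, 25 fell and 0 rose, with a median of -0.49, and the falls of at least 2-fold included LAMTOR4, EPHB4, PLOD3, FIS1 and CUX1. The same 40 genes had a median of 0.09 in Y15 minus untreated. Around SMAD4 on chromosome 18, 26 of 40 fell and 1 rose (median -0.40), including SMAD7, MBD1, ME2 and NARS1. Around CDH1 on chromosome 16, 23 of 40 rose and 2 fell (median 0.37). Around MAGED1 on the X chromosome, by contrast, 6 rose and 2 fell (median 0.08), and around UBB on chromosome 17, 6 rose and 6 fell (median 0.01). Around KDELR1 on chromosome 19, 7 rose and 4 fell (median 0.01), and around PLS3 on the X chromosome 10 rose and 11 fell (median -0.12). Around LAMP3 on chromosome 3, 21 of 40 fell and 6 rose, opposite to LAMP3. In PF04554878 plus lapatinib minus lapatinib the same neighbours had medians of -0.06 around TRIP6, -0.01 around SMAD4 and -0.06 around CDH1. They were -0.24 around MAGED1, 0.07 around KDELR1, 0.30 around PLS3, 0.23 around UBB and -1.05 around LAMP3. Gene order was taken from RefSeq, the genes were chosen after their values had been seen, and differences in gene dosage between the samples were not tested.

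**Figure D5:**
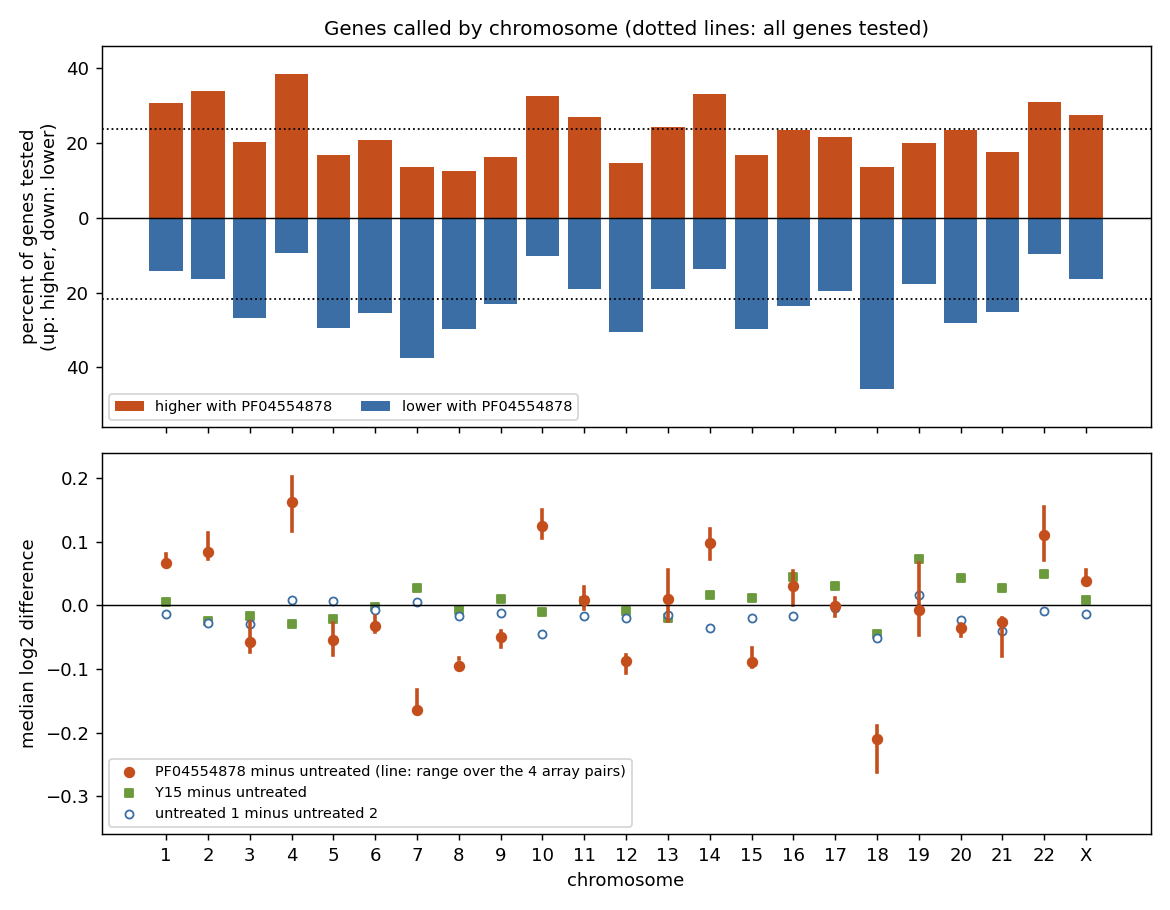
Above, percent of the genes tested on each chromosome that were called higher (up) or lower (down) in the arrays labelled PF04554878 against untreated, with dotted lines at 23.7% and 21.6%, the shares over all genes. Below, the median log2 difference by chromosome for PF04554878 minus untreated with its range over the 4 array pairs, for Y15 minus untreated, and between the untreated replicates. Chromosome 18 lies lowest at -0.21 and chromosome 4 highest at 0.16.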

How the data were processed

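Biotin-labelled cRNA was hybridised to Illumina arrays, and the labels' protocols speak of RNA from frozen tissue. The values are the authors' deposited log2 intensities. The submitters' processing notes name GenomeStudio, while its version, the background step and the normalization are not stated there. Once sorted, the 12 columns agreed to within 0.0146. A further table, with 24 per-sample columns that match no label, was left out.

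The mode of all values was 6.55, and a probe was above background past the mode plus 3 SD (0.0827, from the values under the mode). Of 47318 probes, 30111 carried 1 gene symbol, 8 several and 17199 none. Probes above background on at least 2 of 12 arrays were kept (19922), and the brightest stood for each of 11564 genes. Among 1580 called genes with further kept probes, 12 had another probe called the other way. Folds are bounds, taken against the cutoff, for a gene with every probe below it on both arrays of a group. Precision is limited by the number of arrays.

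All 12 arrays entered 1 limma fit of 6 group means (limma 3.58.1, R 4.3.3, 6 residual and 9.10 prior degrees of freedom), from which 4 comparisons were drawn. In a simulation of PF04554878 against untreated over 11564 genes, 50 genes per size were changed. The fit recovered 66% at a rise of 0.5 log2 units, 98% at 1 and 100% at 2, and 60% at a fall of 0.5. It called 4 of 11364 genes without a change. The noise was normal, with 1 spread per gene for all groups. In the data the replicate spread over genes was 0.16 for untreated and 0.11 for PF04554878, and 45.2% of genes were called, so the simulation was simpler than the data.

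The comparison, gene lists and rules were chosen with earlier results of these data known. Named by rule were the FAK, ERBB and hormone receptor genes with CDH1, the 14 largest rises and falls without overlap, up to 4 members of each list with the smallest adjusted p (any member of a list of under 20 genes), the 8 largest rises and falls called alike with lapatinib, and the 6 largest interactions. Other list members, switched genes and chromosome neighbours were named after their values had been seen. Alternatives covered the filter, the cutoff, background subtraction, a shift of arrays to the same median, array weights, averaged probes, a fit of the compared groups, the replicate number as a block, and leaving out each array.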

Additional observations from a re-analysis of the deposited data

Results flagged for a closer look

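Of the 50 genes named as targets and receptors, as largest differences, as shared differences or as largest interactions, 40 passed the interaction test. In these the difference between arrays with and without PF04554878 was not the same over lapatinib as over untreated. The level of the lapatinib arrays enters that value, and an altered effect of PF04554878 cannot be told apart from it. Over all genes tested, 5208 of 11564 (45.0%) passed. The largest interactions were chosen by the tested value itself, and the largest and shared differences by differences that enter it. The count of 40 is therefore no test of these genes against others. Each value here is the difference with lapatinib minus the difference without it, on the log2 scale, by limma's interaction test with Benjamini-Hochberg adjustment over all genes. Where a group lay below background the value is compressed and is no bound.

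Among the target and receptor genes it was 1.05 for PTK2, 1.25 for ERBB2, -0.66 for EGFR, 0.61 for ESR1, -2.61 for PGR, 6.23 for TFF1 and -0.92 for CDH1. TFF1 stood at 6.48 in the lapatinib arrays, below background.

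Among the rises it was -3.77 for UBB, -0.78 for LAMP3, -2.09 for PCDHB2, -3.19 for MDK, -3.18 for HSPA1A, -2.75 for CPE, -1.12 for TFF3, -1.74 for OAT, -1.19 for ELOVL2, -2.34 for BTBD6, -1.43 for NIBAN1 and -1.94 for PDZK1. These 12 rises were smaller over lapatinib than over untreated. The lapatinib arrays are the base of the second difference, so their level enters each value. OAT averaged 10.18 in the PF04554878 arrays, 10.29 with lapatinib added, 9.18 in the lapatinib arrays and 7.34 in the untreated arrays. CPE averaged 10.03, 9.18, 8.92 and 7.02 in the same order. RET (1.54) and MARCKS (1.14) rose by more.

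Among the falls it was -0.52 for MAGED1, 2.06 for TRIP6, 1.65 for SNAR-A1, 0.80 for KDELR1, 0.60 for PLS3, 3.46 for HBA2, 2.75 for CEP20, 2.56 for HBA1, 0.42 for SMAD4, 2.65 for SLC7A5, 1.24 for LSP1P5, 0.98 for ID1 and 1.04 for ADGRL1. The value of SMAD4 did not pass without replicate 2 of the PF04554878 group (0.36, adjusted p = 0.0506). Among the largest interactions it was -7.31 for GAGE4, -7.03 for GAGE12G, -7.00 for GAGE12J, -6.87 for CLDN1, -6.62 for GAGE12F and -6.57 for GAGE12C. No cause of these differences was tested.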

How the results depend on the processing

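The 4 counts of genes called stayed within 1.5 times of the reported count under all 60 alternatives run. For PF04554878 against untreated (5232) the count was 5181 with no filter on dim probes, 4063 with only genes above background on all 12 arrays, 5012 with the cutoff at the mode plus 6 SD, 5017 after linear background subtraction, 5279 with arrays shifted to the same median, 4095 in a fit of the groups compared, 4427 with array weights and 5333 with kept probes averaged. It ran from 4246 to 4982 with each array left out in turn. The share of calls that were higher was 52.3%, and 48.1% (2539 higher, 2740 lower) after the median shift, so which direction held more calls depended on this shift. Those left-out ranges were 5552 to 5711 for PF04554878 plus lapatinib against lapatinib, 4247 to 4675 against Y15 and 4390 to 5340 for the interaction.

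The replicate number was not taken to pair the samples. The labels give it no meaning, and deviations of same-numbered arrays correlated between -0.33 (PF04554878 and lapatinib) and 0.13 (PF04554878 plus lapatinib and lapatinib), with -0.08 for PF04554878 and untreated. With the replicate block the counts were 5031, 6432, 5296 and 4974 for the comparisons in the order above.

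Named genes in this section are those named by rule, and no called value of these changed sign. Other genes given above were not followed through the alternatives, such as GFRA1, whose probes were called in both directions. Of the values for named genes, 4286 kept their call, 51 lost it and 21 gained it. Calls lost in PF04554878 against untreated were those of PGR, HBEGF, SQSTM1, SLC39A7, PCDHB8, ERRFI1 and CTNNA1. The interactions of SMAD4 (0.44, adjusted p = 0.0706) and PLS3 (0.36, adjusted p = 0.229) did not pass after linear subtraction, nor that of MAGED1 (-0.27, adjusted p = 0.053) with probes averaged. Of the list counts, 765 stayed within 1.5 times and 75 did not, and of the list medians 371 stayed within the replicate spread and 49 did not. Depth is unknown for arrays, and dim genes near the cutoff have compressed differences.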
